A study of Mus musculus with 7 samples.

Results

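The accessible elements of Ebf1 were described in 7 ATAC-seq libraries of sorted mouse bone marrow B-cell progenitors, 1 library in each group. ATAC-seq recovers DNA fragments from open chromatin. A peak is where such fragments pile up above the background of the library. Members were all peaks that overlapped Ebf1 on mm10 (GRCm38), chr11:44617317-45008091, or lay up to 150 kb upstream or 50 kb downstream of it. In all, 346 of the 647973 peaks in the 7 lists met this rule, and overlapping peaks merged into 76 elements. WT cells (pre-proB, proB and preB) came from Ergfl/fl mice without Cre. The cells of the Erg KO pre-proB library were Rag1CreT/+;Ergdelta/delta, in which Cre expressed from the Rag1 locus deleted the floxed Erg alleles in lymphoid progenitors. Rescue cells carried the same deletion plus IgHVH10tar, a knock-in allele with a prearranged heavy chain, and their titles gave the same 3 stages. All mice were adult, both sexes were used in the study, and the sources used here do not give the number of mice behind each library. The source names of the 3 Rescue libraries contradicted their titles. The library titled pre-proB had the source proB, the one titled proB had preB, and the one titled preB had pre-proB. Titles were followed here. With 1 library per group, the differences given are between libraries, the spread between mice is unknown and no significance test was possible.

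Ebf1 encodes early B cell factor 1, a DNA-binding protein of the COE family that opens chromatin at B-lineage genes and is required for progenitors to pass the pre-proB stage. Its transcription is known to start from a distal (α) and a proximal (β) promoter, and it is sustained by a circuit in which E2A, Foxo1 and IL-7 receptor signalling through STAT5 act early while Pax5, Ets1, PU.1 and Ebf1 itself act on the promoters. Erg is an ETS-family factor, so ETS-type sequence within the elements was also examined.

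The sequences of 6 elements are shown first, because the comparisons between stages and genotypes turn on them. Each is 200 bp of the GRCm38 plus strand, which is also the coding strand of Ebf1. The proximal promoter sequence ends at the base before the first annotated start, and every other sequence is centred on the highest summit of its element. Elements are named by the distance of that summit from the first annotated start. Capitals mark matches on either strand to the letters CCGGAAG or CAGGAAG (ETS), GAGGAAGT (PU.1), TCCCNNGGG (EBF1), CAGCTG or CACCTG (E protein), TGTGGTT (RUNX), GTAAACA (FOXO) and TTCNNNGAA (STAT5). The ETS and PU.1 letters share the core GGAAG. The proximal promoter and −6 kb sequences represent the promoters, −42 kb and +333 kb the elements of WT pre-proB that Erg KO pre-proB lacked, and +148 kb and +276 kb elements that were higher from the proB stage on.
proximal promoter, chr11:44617117-44617316: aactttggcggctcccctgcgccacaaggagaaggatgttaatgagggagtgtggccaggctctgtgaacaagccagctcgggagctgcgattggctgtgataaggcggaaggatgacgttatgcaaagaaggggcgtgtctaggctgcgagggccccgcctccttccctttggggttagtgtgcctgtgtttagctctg
−6 kb, chr11:44611176-44611375: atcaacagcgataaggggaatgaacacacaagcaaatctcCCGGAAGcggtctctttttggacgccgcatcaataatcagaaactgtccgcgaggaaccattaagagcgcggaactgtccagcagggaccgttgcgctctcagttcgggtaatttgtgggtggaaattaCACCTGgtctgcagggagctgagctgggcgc
−42 kb, chr11:44574896-44575095: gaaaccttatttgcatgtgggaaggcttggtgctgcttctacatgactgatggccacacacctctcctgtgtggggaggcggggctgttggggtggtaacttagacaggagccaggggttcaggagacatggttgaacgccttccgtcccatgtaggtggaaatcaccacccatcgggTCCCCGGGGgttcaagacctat
+148 kb, chr11:44765143-44765342: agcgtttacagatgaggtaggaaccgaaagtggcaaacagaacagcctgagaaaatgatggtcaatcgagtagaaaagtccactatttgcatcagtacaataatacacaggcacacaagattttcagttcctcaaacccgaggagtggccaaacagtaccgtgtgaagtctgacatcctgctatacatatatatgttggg
+276 kb, chr11:44893005-44893204: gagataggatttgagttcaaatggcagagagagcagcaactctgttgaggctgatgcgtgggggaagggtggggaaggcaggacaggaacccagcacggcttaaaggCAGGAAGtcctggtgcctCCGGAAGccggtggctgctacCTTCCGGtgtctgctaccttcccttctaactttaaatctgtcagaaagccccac
+333 kb, chr11:44950434-44950633: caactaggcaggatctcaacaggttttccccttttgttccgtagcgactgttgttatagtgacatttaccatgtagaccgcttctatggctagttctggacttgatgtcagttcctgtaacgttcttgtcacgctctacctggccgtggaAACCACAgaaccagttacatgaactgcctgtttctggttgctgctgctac

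The −42 kb sequence held the EBF1 letters, the +333 kb sequence the RUNX letters, and the +276 kb sequence ETS letters at 3 places. The −6 kb sequence held the ETS letters CCGGAAG once and the E protein letters CACCTG once. In the 200 bp before the proximal start, and at the +148 kb summit, none of these letters was found, which says only that they are not in these windows. The core GGAAG alone was not searched for, and it is present in the proximal promoter and −42 kb sequences. By ChIP-seq in wild-type proB cells, the study reported Erg binding at the proximal (β) promoter region.

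The lists held between 76465 (WT preB) and 105649 (Rescue pre-proB) peaks. Read totals are not in the lists, and the background pileup, the mean number of fragments expected over a base, was between 3.49 (Rescue proB) and 4.60 (Rescue pre-proB). It is the closest measure of depth here. Pileup counts are called fragments in this report, but whether reads or fragments were counted is not given. The lowest summit among called peaks held between 10 and 12 fragments, so a place without a peak may still hold about that many. Of 10 B lineage markers, the WT pre-proB library had a promoter peak at 9, the Erg KO library at 7, the library titled Rescue pre-proB at 8, and each of the 4 proB and preB libraries at 10. Over all 21938 protein-coding genes the share with a promoter peak was 63.3%, 65.5% and 61.4% in WT pre-proB, proB and preB, 64.2% in Erg KO, and 64.5%, 64.8% and 63.1% in the Rescue libraries. Of 8 T cell markers, 4 were open at the promoter in WT pre-proB and 6 in both Erg KO and Rescue pre-proB. The added 2 had small peaks, Cd4 with summit folds over background of 5.86 and 3.22 and Bcl11b with 3.66 and 3.22. The lowest folds called in these 2 libraries were 2.38 and 2.32. Of the other 4, Thy1 was lower in both (8.25 and 18.4, against 22.3 in WT), and Cd3g, Gata3 and Lck were higher in both. Of 6 NK and innate lymphoid markers, 5 had a promoter peak in every pre-proB library and 2 in both preB libraries. In bulk libraries, fewer cells with an open element and less opening per cell cannot be told apart.

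Accessibility around Ebf1 was wider at the proB and preB stages than at the pre-proB stage. In WT the number of window peaks was 41 at pre-proB, 61 at proB and 54 at preB. Erg KO pre-proB had 37. The Rescue libraries had 36 at pre-proB, 60 at proB and 57 at preB. As a share of all peaks of the list, this was 0.0429% at pre-proB, 0.0665% at proB and 0.0706% at preB in WT, 0.0361% in Erg KO, and 0.0341%, 0.0656% and 0.0675% at the same stages in Rescue. The 3 pre-proB libraries were thus below all 4 proB and preB libraries, both in number and in share, although the pre-proB lists were the longest of the 7. Peaks covered 25.5 kb of the window in WT pre-proB, 25.4 kb in Erg KO and 24.8 kb in Rescue pre-proB, against 31.6 to 37.6 kb in the other libraries.

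**Figure D1:**
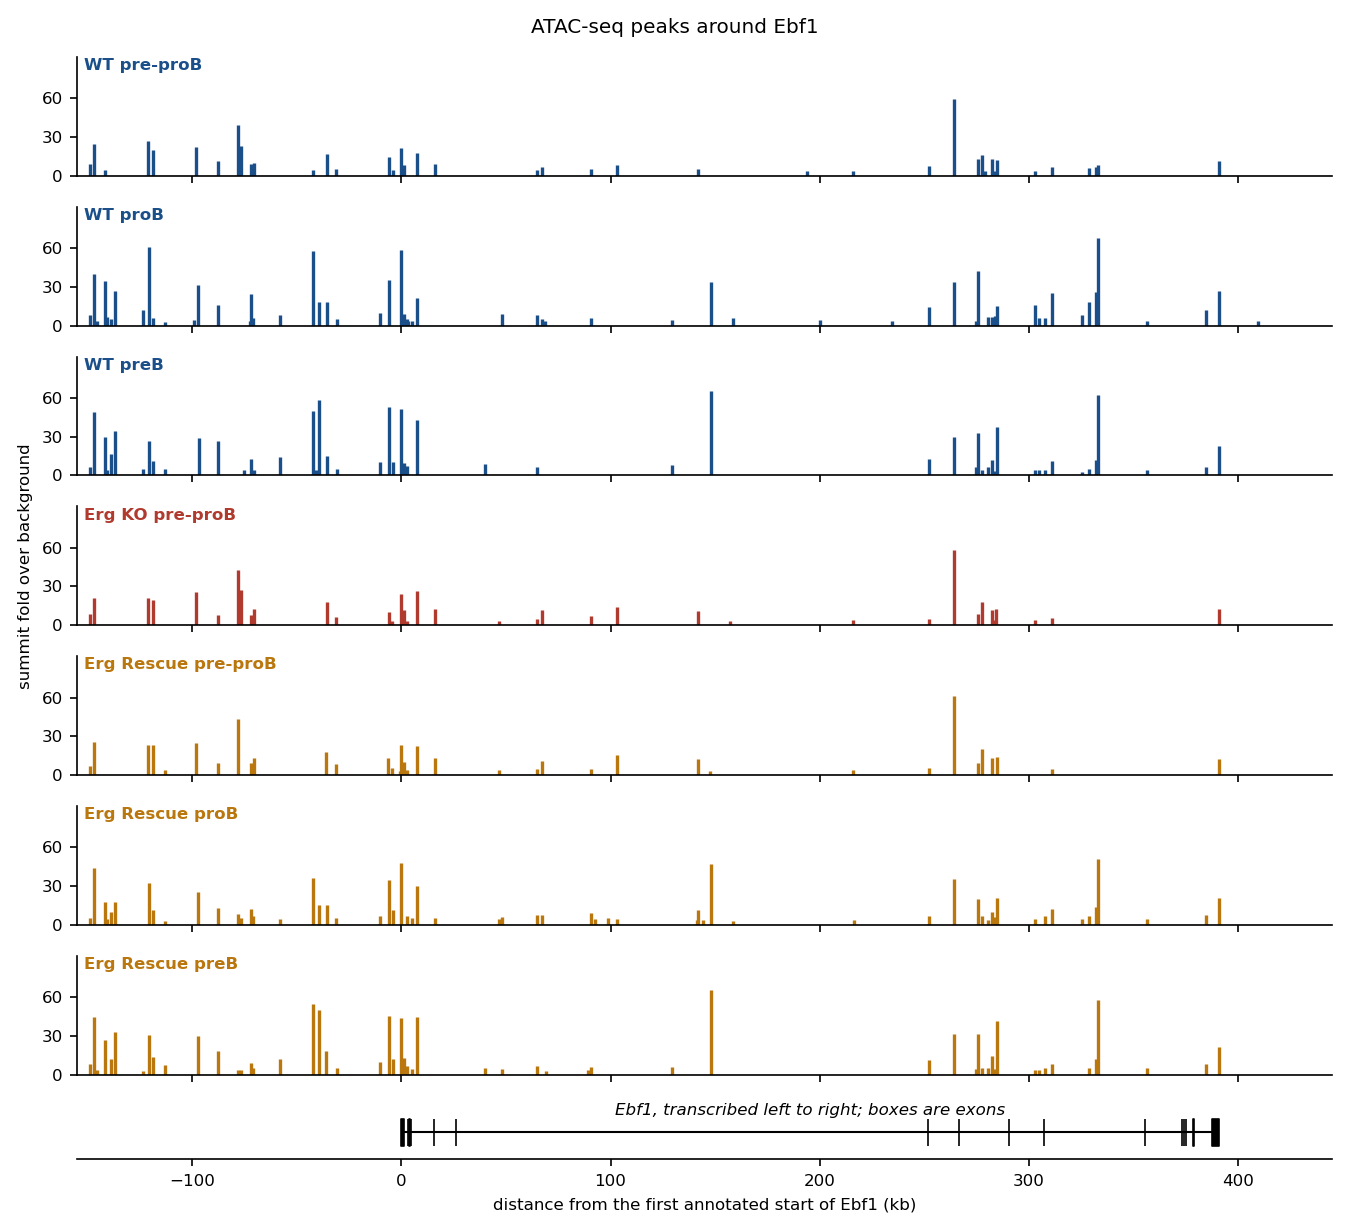
Summit fold over background (vertical axis, same linear scale in each row) of every window peak by distance of its summit from the first annotated Ebf1 start (kb), 1 row per library, with the exons of Ebf1 as boxes at the bottom. The 3 pre-proB rows lack the tall peaks at −42, −39, +148 and +333 kb that stand in all 4 proB and preB rows.

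Of the 76 elements, 27 had their highest summit upstream of the gene, 47 in introns of Ebf1, 2 downstream and none in an exon. Intron 6, which spans 225.6 kb, held 22 elements. Intron 8, of 24.0 kb, held 8, and intron 10, of 48.3 kb, held 6. Upstream, 8 elements lay within Rnf145 and 1 within Ublcp1. The −97 kb and −147 kb elements covered the promoters of these neighbouring genes.

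Presence over the 7 libraries split the elements into a shared set and stage-dependent sets. Peaks in all 7 libraries were found at 20 elements, 26.3% of the 76, against 32.0% of the 145247 regions merged over the whole genome. No pre-proB library had a peak at 34 elements (44.7%), against 23.5% of all regions. Of these, 9 (11.8%, against 5.19%) had a peak in all 4 proB and preB libraries, and they lay at −139, −137, −58, −39, −10, +280, +308, +356 and +385 kb. Another 5 elements (6.58%, against 1.07%) were open in WT pre-proB and in all 4 proB and preB libraries but in neither Erg KO nor Rescue pre-proB. In the other direction, 6 elements (7.89%, against 19.3%) were open in all 3 pre-proB libraries and not in WT proB. A peak in 1 library was all that was seen at 15 elements (19.7%, against 17.8%).

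Elements open in all libraries were higher than those open in no pre-proB library, by the median. The highest summit fold in any library had a median of 26.8 over the 20 elements open in all libraries, and a median of 5.54 over the 34 elements open in no pre-proB library. A fold here is the fragment pileup at the summit over the background pileup of the library, each plus 1. It reached 10 in at least 1 library at 18 of the 20 and at 7 of the 34. This order is partly built in. The maximum runs over 7 libraries in the first set and over at most the 4 proB and preB libraries in the second. A call in every list also needs a summit above each limit. The same medians over all merged regions were not taken, so nothing particular to Ebf1 follows.

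**Figure D2:**
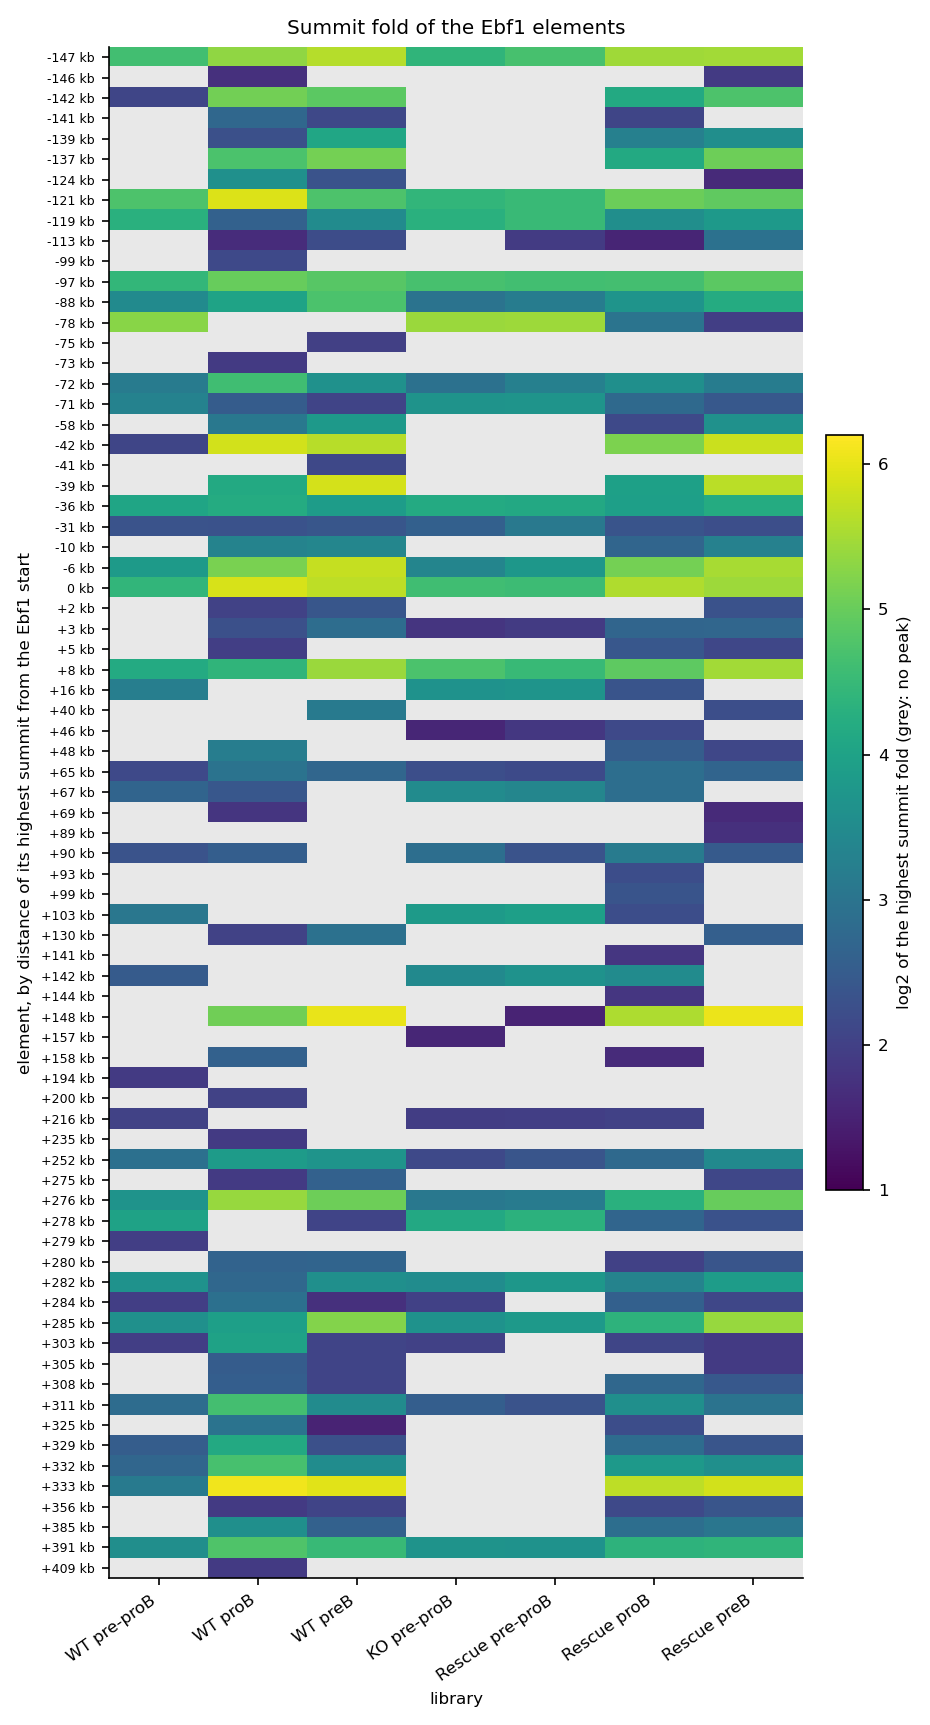
Log2 of the highest summit fold of 75 of the 76 elements (rows, ordered by position along the locus) in the 7 libraries (columns), with grey for no peak. Rows such as −36 kb and −31 kb are filled in all 7 columns, while −42 and +333 kb are grey in Erg KO and Rescue pre-proB and −39 kb is grey in all 3 pre-proB columns.

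The proximal promoter was open in every library and higher from the proB stage on. In WT its summit fold was 21.5 at pre-proB, 58.9 at proB and 51.1 at preB. In Erg KO pre-proB it was 24.4. The Rescue libraries had 23.6 at pre-proB, 48.1 at proB and 43.5 at preB. The 3 pre-proB values thus lay together, below the other 4. The WT proB fold was 2.74 times that of WT pre-proB (95% counting interval 2.21 to 3.45). Erg KO over WT at the pre-proB stage gave a ratio of 1.13 (0.874 to 1.47), and Rescue proB over WT proB 0.817 (0.683 to 0.973). Such intervals are exact only if each count of the pileup is a separate fragment, and they cover counting error only. If both reads of a fragment were counted, they are too narrow. Summits lay from −185 to −84 bp relative to the first start in all 7 libraries. At 58.9, the WT proB promoter ranked 6349 of the 91668 peaks of its list, in the top 6.93%.

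A second peak followed the proximal start, with its summit from +1071 to +1097 bp, in the first intron. Further annotated Ebf1 starts lie just before this summit, at +799 and +862 bp. The second peak was separate in 6 libraries and ran into the promoter peak in Rescue proB. The fold at this second summit was 7.95, 8.68 and 9.64 over the 3 WT stages in order, 11.9 in Erg KO, and 10.4 and 13.2 at the pre-proB and preB stages of Rescue. Unlike the promoter summit, it did not separate the pre-proB libraries from the others. Farther into the gene, +2 and +3 kb (intron 1) and +5 kb (intron 4) held small peaks with folds of at most 7.23, and no peak lay within 1000 bp of the annotated start at +294821 bp. The +3 kb element was open in all libraries but WT pre-proB, with 3.48 in Erg KO pre-proB.

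The distal promoter is known to lie several kb upstream of the proximal one. GENCODE M21 has no Ebf1 transcript starting there, and an element of all 7 libraries at −6 kb, with summits from −6294 to −6041 bp, was at that place. The assignment rests on position only. In WT the fold of the −6 kb element was 14.2 at pre-proB, 35.6 at proB and 53.3 at preB. It was 10.3 in Erg KO pre-proB, the lowest of the 7. In the Rescue libraries it was 13.4, 34.5 and 45.6 at pre-proB, proB and preB. This element was thus highest at preB in both genotypes, whereas the proximal promoter had its highest value at proB in both. WT preB over WT proB gave 1.49 (1.23 to 1.82) at −6 kb and 0.867 (0.728 to 1.03) at the proximal promoter. The second interval includes 1, and the Rescue proB and preB folds of the proximal promoter were close, at 48.1 and 43.5. Its order of proB and preB is therefore not settled. At −6 kb, Erg KO over WT pre-proB gave 0.725 (0.499 to 1.04), an interval that includes 1. A flanking peak, with summits from −4494 to −3993 bp, had a fold of 3.48 in Erg KO, 4.46 in WT pre-proB and 5.18 in Rescue pre-proB, against 10.7 in WT preB, 11.8 in Rescue proB and 12.2 in Rescue preB. In WT proB it was merged with the −6 kb peak.

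**Figure D3:**
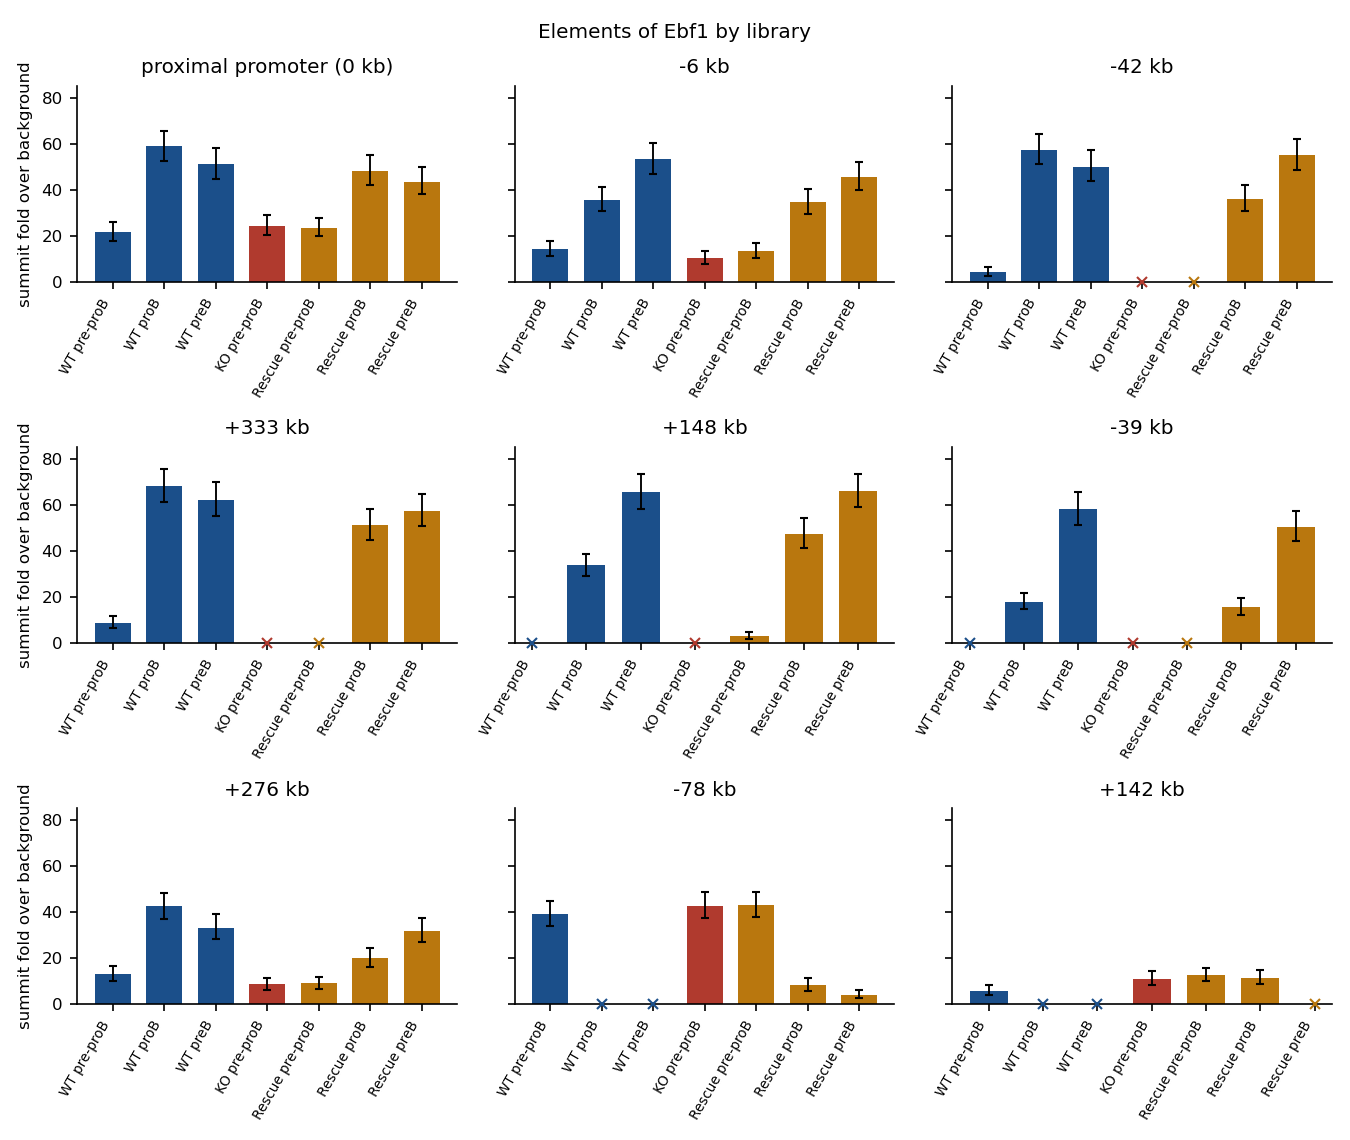
Summit fold over background (bars from 0) of 9 elements in the 7 libraries, blue for WT, red for Erg KO and ochre for Rescue, with 95% Poisson counting intervals as error bars and a cross where no peak was called. The proximal promoter, −6, −42, +333, +148, −39 and +276 kb are higher in all 4 proB and preB libraries, and −78 kb in all 3 pre-proB libraries.

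The question of the WT and Erg KO comparison was whether the locus is open at the pre-proB stage without Erg. Most of it was. Of the 41 WT pre-proB peaks, 34 overlapped an Erg KO peak and 7 (17.1%) did not, against 6.88% over the whole WT pre-proB list. In the converse direction 3 of 37 Erg KO peaks (8.11%) had no WT peak, against 13.6%. Among the 30 elements open in both libraries, none was 2 times or more higher in Erg KO (0.280% of regions genome-wide) and none 2 times or more lower (0.270%). The median ratio of Erg KO over WT was 1.05 at these elements and 1.04 over all shared regions.

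The 7 elements without an Erg KO peak lay at −142, −42, +194, +279, +329, +332 and +333 kb. Highest among them in WT pre-proB was +333 kb, in intron 10, with a fold of 8.72 and 44 fragments at the summit (32.0 to 59.1, 95% Poisson interval). Its neighbours at +332 and +329 kb had folds of 6.59 and 5.82, with 33 and 29 fragments. The peaks at −142 and −42 kb both had a fold of 4.26 with 21 fragments (13.0 to 32.1). The other 2, +194 and +279 kb, had folds of 3.68 and 3.88 and were called in no other library. All 7 were thus modest peaks, at or below the middle of the WT pre-proB list (+333 kb stood at the top 50.3%). An Erg KO peak needed a fold of 2.38 or more, and a fold at that limit would give a ratio of Erg KO over WT of 0.273 at +333 kb and 0.559 at −42 kb. With both lists restricted to a −log10 q of 10 or more, or to 76465 peaks each, +329, +332 and +333 kb were still without an Erg KO peak, −142 and −42 kb were no longer WT peaks, and +252 kb joined the unshared set.

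Rescue pre-proB, the other library with Erg deleted and titled pre-proB, had no peak at any of these 7 elements. In total 9 of the 41 WT pre-proB peaks (22.0%) had no Rescue pre-proB peak, against 5.88% genome-wide, the added 2 being +284 and +303 kb. Of the 36 Rescue pre-proB peaks 4 (11.1%, against 15.6%) had no WT peak. Erg KO and Rescue pre-proB shared most of the locus, with 3 of 37 Erg KO peaks (8.11%, against 6.57%) and 2 of 36 Rescue peaks (5.56%, against 9.81%) unshared. Both comparisons use the same WT library, so they are not independent.

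**Figure D4:**
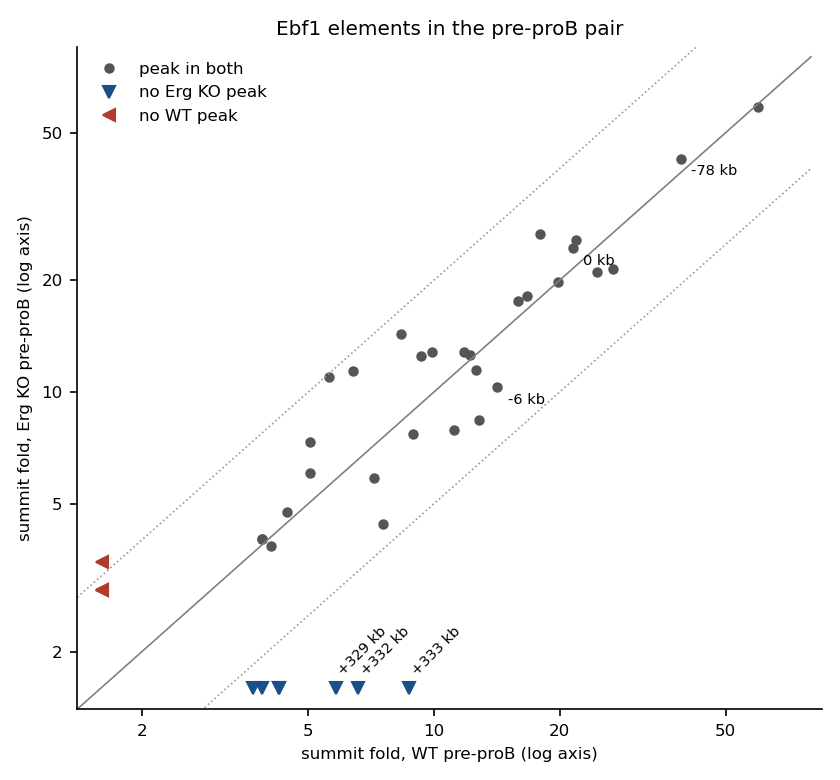
Summit fold of each element in WT pre-proB (horizontal, log axis) and Erg KO pre-proB (vertical, log axis), with triangles at the margins for elements called in 1 of the 2, a solid line for equality and dotted lines for 2 times. The 30 shared elements lie within the dotted lines, and elements with equal folds, such as −142 and −42 kb, coincide at the margin.

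Where both pre-proB libraries had a peak, ratios of Erg KO over WT ran from 0.582 to 1.96. The counting interval excluded 1 at 6 of the 30 elements, of which 4 were higher in Erg KO and 2 lower. Over the 84912 regions shared genome-wide it did so at 6.88%, with 4.98% higher and 1.90% lower. At +142 kb (intron 6) the fold was 5.62 in WT, 11.0 in Erg KO and 12.5 in Rescue pre-proB, and Erg KO over WT gave 1.96 (1.25 to 3.24). At +8 kb (intron 4) it was 18.0 in WT, 26.6 in Erg KO and 22.7 in Rescue pre-proB, with a ratio of 1.47 (1.13 to 1.94). Also higher in Erg KO were +67 kb, with folds of 6.40 and 11.4, and +103 kb, with 8.34 and 14.3. Lower in Erg KO were +276 kb, with 12.8 in WT and 8.43 in Erg KO (0.659, 0.437 to 0.972), and +252 kb, with 7.56 and 4.40 (0.582, 0.325 to 0.985). With 30 elements examined some such intervals arise by counting error, and variation between mice is not in them.

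At later stages 5 of these 7 elements had a peak in all 4 proB and preB libraries, and +333, −42 and −142 kb were high there. At +333 kb the fold was 68.1 in WT proB and 62.2 in WT preB, and 51.0 and 57.4 in Rescue proB and preB. The WT proB summit was the highest of all window peaks, in the top 5.32% of its list, and 7.81 times that of WT pre-proB (5.82 to 11.2). At −42 kb the fold was 57.4 in WT proB and 50 in WT preB, and 36.1 and 54.9 in Rescue proB and preB, with 13.5 times more in WT proB than in WT pre-proB (9.04 to 23.0). At −142 kb it was 34.3 and 29.6 in WT proB and preB, and 17.8 and 27.0 in the Rescue pair. The neighbours +332 and +329 kb had folds of 25.8 and 17.9 in WT proB, 11.6 and 4.82 in WT preB, 13.8 and 7.13 in Rescue proB, and 12.0 and 5.16 in Rescue preB. All 5 were therefore open in the Rescue proB and preB libraries, which also lack Erg.

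Promoters of some B-lineage genes, but not most, followed the same order of libraries as these 5 elements. Of the 10 B lineage markers, 4 (Cd79a, Cd79b, Vpreb1 and Igll1) were higher in WT pre-proB than in Erg KO and Rescue pre-proB. These 4 were higher again in all 4 proB and preB libraries. At Cd79b the WT, Erg KO and Rescue pre-proB folds were only 8.34, 6.60 and 7.86, and at Igll1 25.0, 20.9 and 21.6. No counting interval was made for these promoters, and the share of all promoters in this order was not counted. Another 3 of the 10 markers went the other way in the pre-proB libraries. Cd22, an inhibitory receptor of B cells, had 30.4 in WT, 35.4 in Erg KO and 40.4 in Rescue pre-proB. Ly6d, a surface marker of B-cell progenitors, had 10.3, 13.4 and 18.0 in the same libraries. Il7r had 39.9, 51.9 and 50.2. Cd79a, which encodes a signalling chain of the B cell receptor, had a promoter fold of 11.4 in WT pre-proB, no peak in Erg KO and 3.57 in Rescue pre-proB, against 80.1 in WT proB. Vpreb1, a surrogate light chain gene, had 8.53 in WT pre-proB and no peak in Erg KO or Rescue pre-proB. Pou2af1, a B-cell coactivator, had 7.37 and Pax5, the commitment factor, 3.68 in WT pre-proB, and neither had a peak in Erg KO or Rescue pre-proB. The Pax5 peak was small, as the lowest fold called in WT pre-proB was 2.52. Of 12 known Ebf1 target genes, 11 were open at the promoter in WT pre-proB, 7 in Erg KO, 8 in Rescue pre-proB and 12 in each of the other libraries. Over all protein-coding genes the shares of the 3 pre-proB libraries were 63.3%, 64.2% and 64.5%. Whether the share of more mature cells in the sorted populations had a part in the result was not tested.

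From pre-proB to proB in WT cells the locus gained more peaks than the genome did. Of the 61 WT proB peaks, 30 (49.2%) had no WT pre-proB peak, against 31.9% of the WT proB list. In the other direction 9 of 41 WT pre-proB peaks (22.0%) had no WT proB peak, against 34.1%. The gain was not particular to Ebf1. In windows built the same way, 23 of 40 WT proB peaks around Pax5 and 33 of 65 around Erg had no WT pre-proB peak. The converse counts were 5 of 21 around Pax5 and 7 of 41 around Erg. Among the 29 elements open in both, 13 were at least 2 times higher in WT proB (44.8%, against 13.8%) and 1 at least 2 times lower (3.45%, against 16.0%). The median ratio of WT proB over WT pre-proB was 1.90 at the elements and 0.952 over all shared regions.

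The elements 2 times or more higher in WT proB lay at −142, −121, −72, −42, −6, 0, +276, +303, +311, +329, +332, +333 and +391 kb. At +276 kb, in intron 8, the WT fold was 12.8 at pre-proB, 42.3 at proB and 33.1 at preB, a ratio of 3.30 (2.53 to 4.47) for the first step. At −121 kb it was 26.8, 60.6 and 26.7, so that this element was highest in WT proB, while Rescue proB had 32.7. At +391 kb, just past the end of the gene, it was 11.8 in WT pre-proB and 27.1 in WT proB. The exception was −119 kb, with 19.8 in WT pre-proB and 6.09 in WT proB (0.308, 0.196 to 0.453).

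Among elements with no WT pre-proB peak, +148 kb in intron 6 stood highest. Its fold was 33.6 in WT proB and 65.3 in WT preB, 47.4 in Rescue proB and 65.8 in Rescue preB. Of the pre-proB libraries, Rescue had a small peak of 2.86 there and WT and Erg KO had none. At −39 kb the fold was 17.9 in WT proB and 58.1 in WT preB, 15.6 in Rescue proB and 50.3 in Rescue preB, with no pre-proB peak. At −137 kb it was 26.4 and 34.6 in WT, and 17.8 and 33.0 in Rescue. These 3 elements were higher in preB than in proB in both genotypes. The remaining elements of the set of 9, such as −10 kb with 9.97 in WT proB and +385 kb with 12.0, had folds of at most 16.9.

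A few elements were high at the pre-proB stage instead. Within an intron of Rnf145, −78 kb had folds of 39.0 in WT, 42.5 in Erg KO and 43.1 in Rescue pre-proB. No peak was called there in WT proB or WT preB, and Rescue proB and preB had 8.02 and 3.92. Smaller elements of this kind lay in introns of Ebf1. At +278 kb the fold was 15.9 in WT, 17.6 in Erg KO and 20.4 in Rescue pre-proB, with no peak in WT proB and 4.16 in WT preB. At +16 kb it was 9.30, 12.5 and 13.0 in the same 3 libraries and was not called in WT proB or preB. All 6 elements open in the 3 pre-proB libraries and not in WT proB (−78, +16, +103, +142, +216 and +278 kb) had a Rescue proB peak, against 36.5% of such regions genome-wide. Their Rescue proB folds ran from 4.01 at +216 kb to 11.4 at +142 kb. All 36 Rescue pre-proB peaks overlapped a Rescue proB peak, so that 0% were unshared, against 33.1% of the Rescue pre-proB list. This rests on an overlap of 1 bp, since 8 of 36 (22.2%, against 44.6%) were unshared with a reciprocal overlap of 50%. At a −log10 q of 10 or more, 3 of 29 (10.3%, against 37.3%) were unshared, with 38232 peaks in each list 3 of 12 (25.0%, against 29.4%), and with 76465 none of 29 (0%, against 27.2%). For 4 of 8 T cell markers and 4 of 6 NK and innate lymphoid markers a promoter peak was called in Rescue proB, against 5 and 3 in WT proB, and their part in this result was not tested.

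The folds of some elements did not follow the stages. At −36 kb the fold lay between 14.7 (WT preB) and 18.4 (Rescue preB) in all 7. At −31 kb it lay between 4.75 and 8.58, with the highest value in Rescue pre-proB. The −97 kb element, at the Rnf145 promoter, ranged from 21.9 to 31.6, with WT pre-proB lowest. The place of its highest summit did differ by stage. That summit lay from −98420 to −98325 bp in the 3 pre-proB libraries and from −97160 to −97006 bp in the other 4. The range of folds thus compares different places within the element. The folds at −147 kb, the Ublcp1 promoter, did separate the stages. They lay between 21.1 and 25.7 in the 3 pre-proB libraries and between 40.2 and 49.1 in the other 4. WT proB over WT pre-proB gave 1.63 (1.31 to 2.06) there. At +65 kb the pre-proB folds ran from 4.46 to 4.76 and the others from 6.40 to 7.94. Other elements open in all libraries were −88, −71, +282 and +285 kb. Of these, −88 and −71 kb did separate the stages. At −88 kb the pre-proB folds ran from 7.88 to 11.2 and the others from 12.9 to 26.5. At −71 kb the pre-proB folds were the higher ones, from 9.89 to 13.0, against 4.16 to 6.90. The +285 kb element had its highest folds at preB, with 37.7 in WT and 41.9 in Rescue, against 12.2 to 20.7 elsewhere.

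From proB to preB in WT cells, 12 of 61 proB peaks (19.7%, against 26.7%) had no preB peak and 5 of 54 preB peaks (9.26%, against 10.7%) had no proB peak. Of the 46 elements open in both, 4 were at least 2 times higher in preB (8.70%, against 5.18%), namely −139, −39, +8 and +285 kb. At −39 kb the ratio was 3.24 (2.58 to 4.17), at +285 kb 2.46 (1.89 to 3.26) and at +8 kb 2.01 (1.59 to 2.57). Lower in preB by the same measure were 8 elements (17.4%, against 8.53%), namely −124, −121, +284, +303, +311, +325, +329 and +332 kb. Thus 6 of the 8 lay between +284 and +332 kb, whereas +333 kb, next to them, had a ratio of 0.914 (0.779 to 1.07). At +303 kb (intron 9) the WT fold was 3.88 at pre-proB, 15.9 at proB and 4.16 at preB, and at +311 kb (intron 10) it was 7.17, 24.9 and 11.4.

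Rescue and WT were then compared at the same titled stage, to see whether the locus opens in B-lineage cells that develop without Erg. At proB, 12 of 61 WT peaks (19.7%, against 20.6%) had no Rescue peak, and 12 of 60 Rescue peaks (20.0%, against 19.8%) had no WT peak. Both shares were near the genome-wide background. Of the 46 elements open in both, none was 2 times or more higher in Rescue proB (0%, against 5.32%) and 6 were 2 times or more lower (13.0%, against 6.52%). The 6 were −72, +252, +276, +303, +311 and +329 kb, and the median ratio was 0.801 at the elements and 1.01 over all shared regions. At +276 kb Rescue proB had 19.8 and WT proB 42.3 (0.469, 0.360 to 0.598), and at +303 kb 4.23 and 15.9 (0.267, 0.145 to 0.428).

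At preB the 2 genotypes were closer. Of 54 WT preB peaks 4 (7.41%, against 8.02%) had no Rescue peak, and of 57 Rescue preB peaks 8 (14.0%, against 17.9%) had no WT peak. None of the 46 elements open in both was 2 times or more higher in Rescue (0%, against 3.05%) and none 2 times or more lower (0%, against 0.885%). The median ratio was 0.937 at the elements and 1.07 over all shared regions. The +276 kb element had 31.8 in Rescue preB and 33.1 in WT preB, and +333 kb 57.4 and 62.2. From Rescue pre-proB to Rescue proB, 25 of 60 proB peaks (41.7%, against 21.8%) had no pre-proB peak. Of the 32 elements open in both, 5 were at least 2 times higher in Rescue proB (15.6%, against 6.87%), namely −6, 0, +148, +276 and +311 kb, and 4 at least 2 times lower (12.5%, against 25.0%), namely −78, +16, +103 and +278 kb. With stages read from the source names instead of the titles, the WT and Rescue comparisons would pair other libraries, and 34 of 61 WT proB peaks (55.7%, against 31.0%) would have no Rescue peak.

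**Figure D5:**
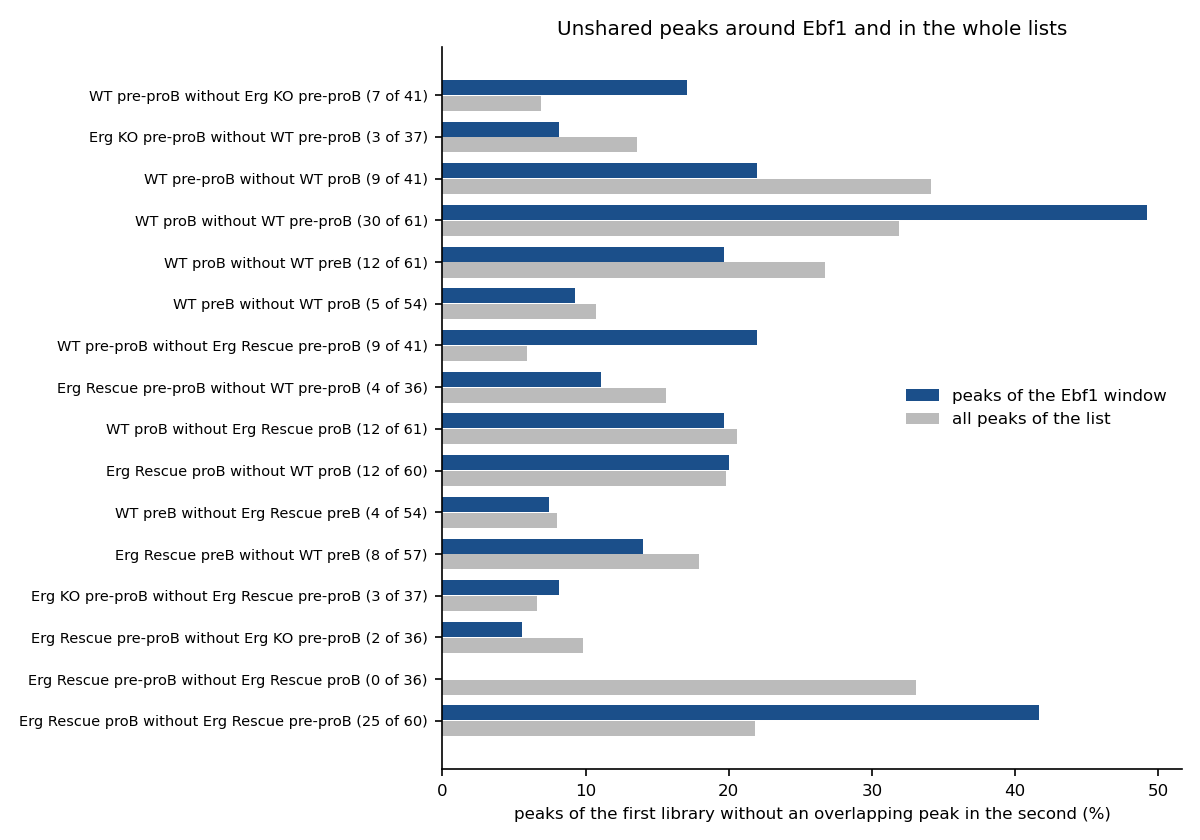
Share of the window peaks of one library without an overlapping peak in another (blue) beside the same share over all peaks of the list (grey), in percent from 0, for 16 comparisons with the counts in brackets. The window share lies above the list share for WT pre-proB without Erg KO (17.1% against 6.88%) and for WT proB without WT pre-proB (49.2% against 31.9%), and is near it for WT and Rescue proB.

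Genes of the circuit around Ebf1 were examined at their promoters. Upstream regulators had promoter peaks at all 14 genes of the list in WT pre-proB and in every proB and preB library, and at 13 in Erg KO and Rescue pre-proB, where Pax5 had none. This difference rests on 1 small peak, since the Pax5 fold in WT pre-proB was 3.68 and the lowest fold called there 2.52. Over all protein-coding genes the share with a promoter peak ran from 61.4% (WT preB) to 65.5% (WT proB). Pax5 and Foxo1 also stand on the list of Ebf1 target genes, so the lists are not separate. Tcf3, which encodes E2A, had a pre-proB promoter fold of 70.8 in WT and 68.2 in Erg KO, and Foxo1 59.7 and 57.7. Ets1 had 107 and 115, and Spi1, which encodes PU.1, 22.9 and 20.2, with 68.1 in WT proB and 97.5 in WT preB. Il7r, the interleukin-7 receptor chain, had 39.9 and 51.9. Erg itself kept a promoter peak, with 12.4 in WT pre-proB, 10.6 in Erg KO, 9.65 in Rescue pre-proB, 44.9 in WT proB and 33.6 in Rescue proB. A promoter peak does not report on a deletion elsewhere in the gene. The other family members Ebf2, Ebf3 and Ebf4 and the EBF cofactor genes Zfp423 and Zfp521 each had a promoter peak in all 7 libraries.

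The loss of peaks in Erg KO pre-proB was not tested for being particular to Ebf1. In windows built the same way around Pax5 and Erg, 3 of 21 and 8 of 41 WT pre-proB peaks had no Erg KO peak, beside 7 of 41 at Ebf1. Among 1949 genes with 10 or more gene body peaks in a library, the bases covered by peaks per kb of gene over the 7 libraries were most like those of Ebf1 at Cxxc5 (Pearson r of 0.983), Bfsp2 (0.982), Pkig (0.979), Msi2 (0.971) and Gm44511 (0.956). The 7 points share library depth and list length, and r was 0.9 or more at 47 genes. With peak number in place of bases, none of these 5 was in the top 5.

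Motif letters were counted in 300 bp centred on the highest summit of each element. E protein letters CACCTG were in 25 of 76 elements (32.9%, against 26.1% of the 145247 merged regions). They were in 13 of the 20 elements open in all libraries (65.0%) and in 6 of the 34 open in no pre-proB library (17.6%). The share among regions of the whole genome with the same presence pattern was not taken for these sets or for the 7 elements named below. Nothing particular to Ebf1 follows from the counts by set. The other E protein letters, CAGCTG, were in 19 elements (25.0%, against 25.5%). ETS letters CAGGAAG were in 25 (32.9%, against 19.2%) and CCGGAAG in 6 (7.89%, against 3.46%), the latter at −147, −6, +90, +144, +276 and +329 kb. Of the 7 elements of WT pre-proB without an Erg KO or Rescue pre-proB peak, only +329 kb held either ETS form. RUNX letters were in 6 elements (7.89%, against 13.5%), 3 of them (−142, +194 and +333 kb) among those 7. EBF1 letters were in 6 (7.89%, against 7.59%), at −124, −121, −42, +46, +385 and +409 kb. PU.1 letters were in 8 (10.5%, against 8.52%), STAT5 letters in 8 (10.5%, against 8.96%), FOXO letters in 3 (3.95%, against 3.94%) and an IRF motif in 8 (10.5%, against 6.69%). A match is a description of the sequence and does not show binding.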

How the data were processed

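Accessibility was measured by ATAC-seq in 7 libraries. Per the methods of the study, reads were aligned to mm10 with Bowtie2 and peaks called with MACS2, 1 list per library. The sources used here give no versions or options for either. The submitters' processing notes also name Picard and CASAVA 1.8.2. The methods name sonication and the labels Tn5 for fragmentation. The score the authors deposited is 10 times the −log10 q, the fold they deposited is a ratio of summit pileup to background, and the −log10 p and −log10 q deposited are those of the summit. Folds were whole multiples of a step (within 0.02) for 100% of peaks, which gave background and summit pileups. Peaks overlapping by 1 bp or more were shared. Overlapping peaks were merged into elements, placed on GENCODE M21. A promoter was 1000 bp on either side of a start. Intervals (95%) are exact Poisson or conditional binomial, take each pileup count as a separate fragment, and cover counting error only. Elements named were those at Ebf1 starts, open in all libraries, differing between WT and Erg KO pre-proB, highest in other presence patterns, or highest in rank. The sequence and values of 1 element are not reported here. The members and lists were chosen with earlier results of these data known. Overlap and merging code was tested on simulated data. Python 3.11.15, numpy 2.4.6, pandas 2.3.3, scipy 1.17.1 and matplotlib 3.10.9 were used.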

Additional observations from a re-analysis of the deposited data

How the results depend on the processing

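Depth limits what an absent peak means, and no setting below adds a replicate. Except where given above, the share over all peaks was not taken at these settings. That share shifts with the setting too. For Rescue pre-proB without Rescue proB it was 33.1% in the main setting and ran from 27.2% to 44.6% in others. The unshared counts below show only how far a count moved and are not a result about the locus. No paired analysis was possible because every group held 1 library. Without the flanks, the gene alone held 25, 36 and 29 peaks in WT pre-proB, proB and preB, 23 in Erg KO and 21, 37 and 33 in the Rescue libraries, with 49 elements, of which 10 were open in all libraries and 21 in no pre-proB library. The unshared counts in the gene alone that moved by over 1.5 times were 18 (WT proB without pre-proB), 2 (WT preB without proB), 7 (WT proB without Rescue), 1 (WT preB without Rescue), 5 (Rescue preB without WT) and 1 (Rescue pre-proB without Erg KO).

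With 38232 peaks in each list, a shorter cut, the window held 15, 27 and 29 peaks in WT pre-proB, proB and preB, 15 in Erg KO and 12, 25 and 26 in Rescue, in 36 elements, of which 8 were open in all libraries and 19 in no pre-proB library. In such lists 3 WT pre-proB peaks had no Erg KO peak and 3 no Rescue pre-proB peak, at −6, +276 and +282 kb in both cases, and +333 kb was no longer among the WT pre-proB peaks. The other counts that moved were 5 (WT pre-proB without proB), 17 (WT proB without pre-proB), 4 (WT proB without preB), 1 (Rescue pre-proB without WT), 6 and 3 (WT proB without Rescue and the converse), 0 (Rescue preB without WT), 0 (Rescue pre-proB without Erg KO), 3 (Rescue pre-proB without Rescue proB) and 16 (the converse).

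With 76465 peaks in each list the counts that moved were 4 (WT pre-proB without Erg KO), 1 (the converse), 3 (WT pre-proB without Rescue), 1 (the converse), 6 (WT proB without preB), 8 (the converse), 7 (WT proB without Rescue), 5 (Rescue preB without WT) and 1 (Erg KO without Rescue pre-proB). At a minimum −log10 q of 10 they were 4 (WT pre-proB without Erg KO), 0 (the converse), 19 (WT proB without pre-proB), 3 (WT pre-proB without Rescue), 1 (the converse), 6 (Rescue proB without WT), 0 (Erg KO without Rescue pre-proB) and 3 (Rescue pre-proB without Rescue proB). With a reciprocal overlap of 50% they were 5 (Erg KO without WT pre-proB), 15 (WT pre-proB without proB), 11 (WT preB without proB), 7 (WT preB without Rescue) and 8 (Rescue pre-proB without Rescue proB).

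With stages from the source names the counts were 23 (Rescue pre-proB without WT), 34 and 7 (WT proB without Rescue and the converse), 9 and 16 (WT preB without Rescue and the converse), 7 and 27 (Erg KO without Rescue pre-proB and the converse), and 27 and 6 (Rescue pre-proB without Rescue proB and the converse). With 200 bp around the summits the FOXO letters were in 1 element. With peak number in place of bases covered, 0 of the 5 genes most like Ebf1 stayed in the top 5. Merging peaks up to 500 bp apart, grouping summits within 250 bp and promoter windows of 2500 bp moved no count they apply to by over 1.5 times. The cause of these changes was not tested beyond the smaller number of peaks that the shorter lists, the higher q and the gene alone leave.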
